A study of Bos taurus with 20 samples.

Results

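The 8 cadherin genes CDH1, CDH2, CDH3, CDH4, CDH5, CDH6, CDH11 and CDH13 were chosen by gene symbol, and all 8 were found among the 33063 named genes of the count table. They were followed across RNA sequencing libraries of 20 clonal populations of bovine mesenchymal stem cells (MSCs), 10 adipogenic (A) and 10 non-adipogenic (N), derived from the adipose tissue of 4 calves, Holstein Friesian and Aberdeen Angus crosses. Every clone grew from a single sorted cell in serum-containing medium with bFGF, and its RNA was taken from undifferentiated cells. A clone is thus A or N by what its sister cells did when given adipogenic medium. N clones formed no adipocytes at a first test, while A clones formed them at that test and again after further expansion. The labels describe strong lipid staining in A clones and none in N clones. By the study's account, clones were judged by eye at the first test, and a fraction of them were also stained. The 10 A clones sequenced were those with the largest share of cells stained by BODIPY, a lipid dye, after differentiation. From animals 17 and 20 came a single pair of clones each, 1 A and 1 N. Animals 22 and 23 contributed 8 clones each, split evenly into 4 A and 4 N, and clones are named here by animal and clone number. The fat came from visceral depots, and which depot each animal gave was not stated in the labels.

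Cadherins are calcium-dependent adhesion proteins of the cell surface. The classical members bind like molecules on the neighbouring cell through their outer domains, and their tails hold β-catenin or plakoglobin, α-catenin and p120-catenin, which tie the contact to actin. Epithelial cells are joined by E-cadherin, whereas mesenchymal cells such as adipose stromal cells usually carry N-cadherin and cadherin-11. The exchange of E- for N-cadherin is a familiar mark of epithelial to mesenchymal transition, and mesothelial cells, which line visceral fat, can carry both.

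Total counts on named genes were 14908802 to 43111345 per N clone and 14615493 to 29185355 per A clone, with medians of 16316703.5 and 16112862. The markers chosen to check the stromal label (PDGFRA, PDGFRB, THY1, ENG, NT5E, ITGB1, LUM, DCN, COL1A1 and COL1A2) summed to levels, in CPM (counts scaled to a common library size), of 21948 to 40223 in N clones and 28045 to 48041 CPM in A clones. COL1A1 and COL1A2 made up most of each sum, with 6279 and 18919 of 27505 CPM in N clone 22-5, so the sums say little about the other markers. In that clone the MSC markers THY1, NT5E and ENG were at 0.395, 0.508 and 19.1 CPM, against medians of 50.1, 83.2 and 347 CPM in N clones. The markers of mesothelial cells summed to 10398 CPM in N clone 22-5 and 7294 CPM in N clone 22-9, while the remaining N clones held 9.31 to 639 CPM and the A clones 8.97 to 1217 CPM, and results that move with these 2 clones are given below with and without them. Levels are CPM scaled by TMM factors, and fold changes are log2 of A against N clones from edgeR's quasi-likelihood fit with animal as a block and Benjamini-Hochberg adjustment over all genes tested, so that p-values measure the spread between clones, several of which share an animal. In these bulk libraries, fewer cells carrying a transcript and less of it per cell cannot be told apart.

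No cadherin gene passed an adjusted p of 0.05 between the A and the N group. Of the 8 genes, 5 passed the filter on low counts and were tested (CDH1, CDH2, CDH3, CDH11 and CDH13), and 0 of them were called by edgeR, where 20.6% of the 12900 genes tested were called, 10.3% higher and 10.3% lower in A clones. None of the 5 had an unadjusted p under 0.05 with edgeR or DESeq2. For none of the 8 cadherins did the A clones lie wholly above or below the N clones, a separation seen in 0.225% of the genes tested with A higher and 0.093% with A lower. The median log2 fold change of the 5 was 0.03, beside -0.01 over all genes tested. CDH6, CDH5 and CDH4 were left out by the filter. The abundant N-cadherin and cadherin-11 transcripts had narrow intervals around no change, which cover the spread between clones and not that between animals. The CDH1 and CDH6 transcripts differed so much from clone to clone that their intervals were several log2 units wide.

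**Figure D1:**
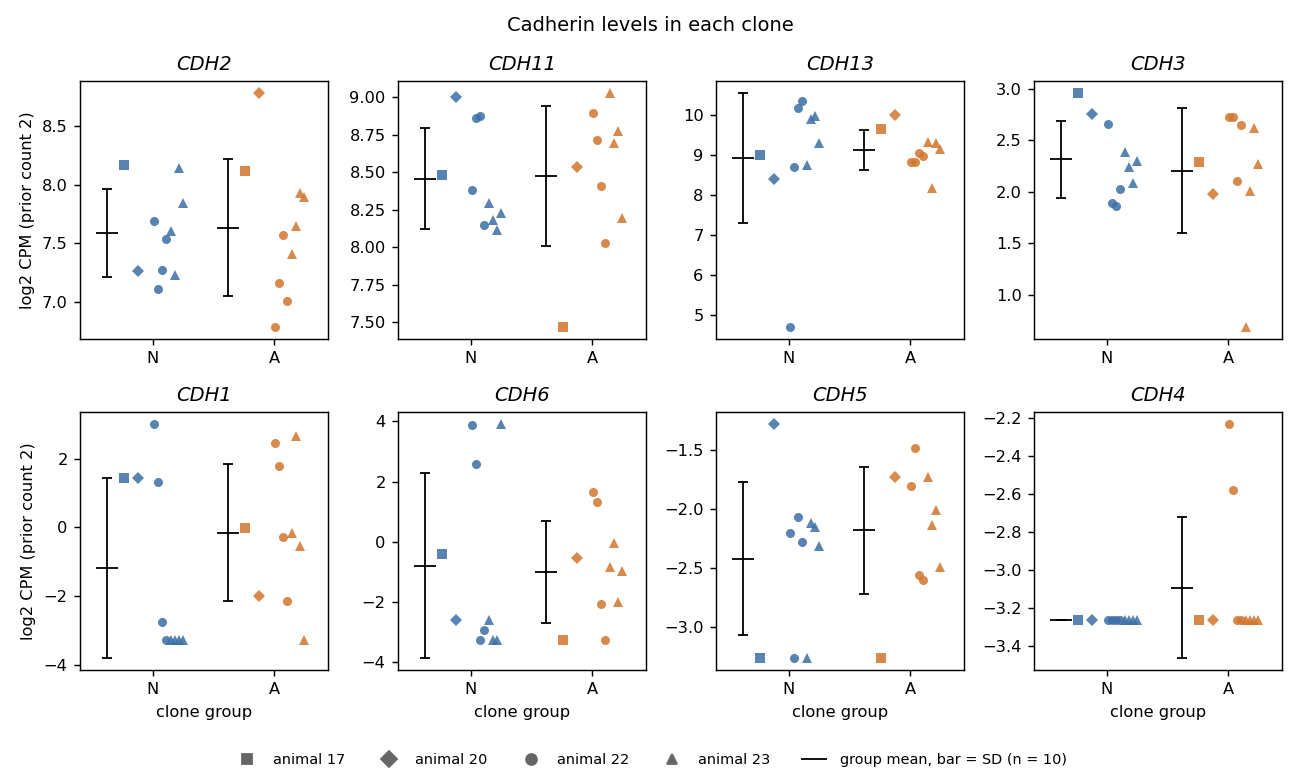
Level of each cadherin gene in every clone, as log2 CPM with a prior count of 2, in N clones (blue) and A clones (orange), with the animal given by the symbol, the group mean as a dash and the SD as a bar (n = 10 each). Each panel has its own scale. CDH2 and CDH11 lie in narrow bands that overlap between the groups, CDH13 has 1 low N clone, and CDH1 and CDH6 spread from 0 counts, drawn at the bottom of the panel, to their highest levels in both groups.

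CDH2 encodes N-cadherin, the classical cadherin of mesenchymal and neural cells. It was at 138 CPM in the lowest N clone, 190 CPM at the median and 287 CPM in the highest, and in A clones at 111, 196 and 440 CPM. The groups overlapped almost entirely, with the highest level in A clone 20-106 and the lowest in A clone 22-11. The log2 fold change was 0.03 (standard error 0.173, 95% interval -0.33 to 0.40, adjusted p = 0.915). A change of 2-fold in either direction lay outside this interval, which covers the spread between clones and not that between animals. With counts summed per animal and condition, the log2 fold change of CDH2 was 0.28 with a larger standard error, 0.351. The estimate over clones rested on opposite values within animals. In animal 20 the single A clone held 440 CPM against 154 CPM in the N clone, a log2 difference of 1.51, whereas the means of log2 CPM differed by -0.05 (animal 17), -0.27 (animal 22) and 0.02 (animal 23).

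CDH11 encodes cadherin-11, a type II classical cadherin of fibroblasts and osteoblast-lineage cells, first known as OB-cadherin. The N clones spanned 277 to 512 CPM (median 324 CPM) and the A clones 177 to 523 CPM (median 393 CPM). A clone 17-57 held the lowest level and A clone 23-14 the highest, and no N clone lay outside the range of the A clones. The log2 fold change was 0.03 (standard error 0.171, 95% interval -0.33 to 0.39, adjusted p = 0.906). Taken animal by animal, the log2 difference was negative in animals 17 (-1.01), 20 (-0.46) and 22 (-0.06) and positive in animal 23 (0.47). In animal 23 the N clones lay close together, at 296 ± 15.5 CPM, beside 417 ± 95 CPM in the A clones (SD, n = 4 each), and with the clones of that animal alone the log2 fold change was 0.50 with an adjusted p of 0.118.

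Since both genes were counted in the same libraries, the ratio of CDH2 to CDH11 CPM can be compared from clone to clone, although transcript lengths were not corrected for and the ratio does not say which transcript was more abundant. The N clones spanned ratios of 0.297 to 1.02 (median 0.619) and the A clones 0.232 to 1.56 (median 0.524). Both A clones of animals 17 and 20 lay above every N clone, at 1.56 and 1.19, and A clone 22-11 lay below every N clone. On the log2 scale the groups were at -0.872 ± 0.627 (N) and -0.843 ± 0.848 (A; SD, n = 10 each), a difference far smaller than the spread between clones.

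CDH13 encodes T-cadherin, which is tethered to the membrane by a lipid anchor, has no cytoplasmic tail for catenins and binds high-molecular-weight adiponectin. N clones ranged from 25.8 CPM through a median of 572 CPM to 1308 CPM, and A clones from 289 through 548 to 1025 CPM. All 10 A clones lay inside the range of the N clones. The low end was set by N clone 22-5 alone, since the next N clone held 336 CPM, and the high end by N clones 22-18 and 22-17, at 1308 and 1153 CPM. The SD of log2 CPM was 1.63 in N clones and 0.498 in A clones. The log2 fold change was -0.24 (standard error 0.446, 95% interval -1.18 to 0.71, adjusted p = 0.734), and without clone 22-5 it was -0.37 (standard error 0.297, adjusted p = 0.389). The log2 difference of CDH13, A minus N, was positive in animals 17 (0.65) and 20 (1.61) and negative in animal 23 (-0.50). In animal 22 the sign depended on the scale, since the difference between means of log2 CPM was 0.44 with clone 22-5 among the N clones, while the mean level was 725 CPM (N) and 483 CPM (A) and edgeR's fit to that animal alone gave -0.59 (standard error 0.867).

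CDH3 encodes P-cadherin, an epithelial and placental cadherin, and is the neighbour of CDH1, with no protein-coding gene between them in the RefSeq annotation of the ARS-UCD2.0 assembly. It was low and even, with 23 to 180 counts in every clone. The N clones spanned 3.54 to 7.68 CPM (median 4.71 CPM) and the A clones 1.51 to 6.50 CPM (median 4.75 CPM). The groups overlapped, with the highest levels in N clones 17-23 and 20-15 and the lowest in A clone 23-14. The log2 fold change was -0.06 (standard error 0.223, 95% interval -0.53 to 0.41, adjusted p = 0.878).

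CDH1 encodes E-cadherin, the adhesion protein of epithelial junctions. It was the most uneven of the cadherins tested, with an SD of log2 CPM over all 20 clones that was at least as large as in 97.5% of the genes tested, against 87.5% for CDH13, 61.1% for CDH3, 59.5% for CDH2 and 50.2% for CDH11. In N clones it held 0 counts in 5 clones, a median of 0.0224 CPM and a highest level of 7.96 CPM in clone 22-5. In A clones it held 0 counts in clone 23-108, a median of 0.754 CPM and a highest level of 6.25 CPM in clone 23-62. More than 3 counts were found in 4 of the 10 N clones (17-23, 20-15, 22-5 and 22-9) and in 7 of the 10 A clones. The log2 fold change was 1.01 (standard error 1.41, 95% interval -1.95 to 3.98, adjusted p = 0.633), and the interval took in large differences in either direction.

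The direction for CDH1 changed with the animal. In animals 17 and 20 the N clone held more, 2.61 against 0.885 CPM and 2.58 against 0.147 CPM. In animal 22 the means were 2.60 ± 3.75 CPM (N) and 2.39 ± 2.44 CPM (A; SD, n = 4 per group), closer than the spread between clones. The sign there depended on the scale, since the difference between means of log2 CPM was 0.87, A minus N. For the same animal alone edgeR's fit gave -0.10 (standard error 1.63). In animal 23 all 4 N clones held 0 counts, which allows up to 0.146 to 0.189 CPM per library, and 3 of the 4 A clones held 8 to 102 counts. The mean of the A clones of animal 23, 1.90 CPM, was at least 11.0-fold higher than 3 counts per N library, and without clone 23-62 the mean of 0.454 CPM gave a bound of 2.62-fold. A test of the interaction between condition and animal, fitted without the filter on the 16 clones of animals 22 and 23, gave CDH1 an adjusted p of 0.728 (unadjusted p = 0.0503).

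CDH6 encodes K-cadherin, a type II cadherin known from kidney and from several embryonic tissues. It was found at 0 to 309 counts. N clones 23-74 and 22-5 held 15.0 and 14.7 CPM and clone 22-9 held 5.88 CPM, all 3 above every A clone, while the median N clone held 0.0602 CPM. A clones ranged from 0 through a median of 0.431 CPM to 3.07 CPM in clone 22-11. More than 3 counts were found in 4 N clones and 6 A clones. Fitted without the filter, the log2 fold change was -2.22 (standard error 1.36, 95% interval -5.09 to 0.65, adjusted p = 0.302). It was set largely by clone 23-74, without which it was -0.25 (adjusted p = 0.942).

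CDH5 encodes VE-cadherin, the junction protein that defines endothelial cells, and it was at or near the limit of detection in every clone, with 0 to 5 counts in each library and 44 counts over all 20. More than 3 counts were found in 2 N clones and 3 A clones. Of the other endothelial markers CLDN5 held 0 counts in every clone, whereas PECAM1 reached 450 counts (16.3 CPM) in A clone 22-11, which held 5 counts of CDH5. CDH4, which encodes R-cadherin of retina and brain, held 0 counts in all 10 N clones and in 8 A clones, with 3 counts in clone 22-11 and 1 in clone 22-16. No fold is given for CDH4 and CDH5, whose levels in both groups were near 3 counts or below.

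**Figure D2:**
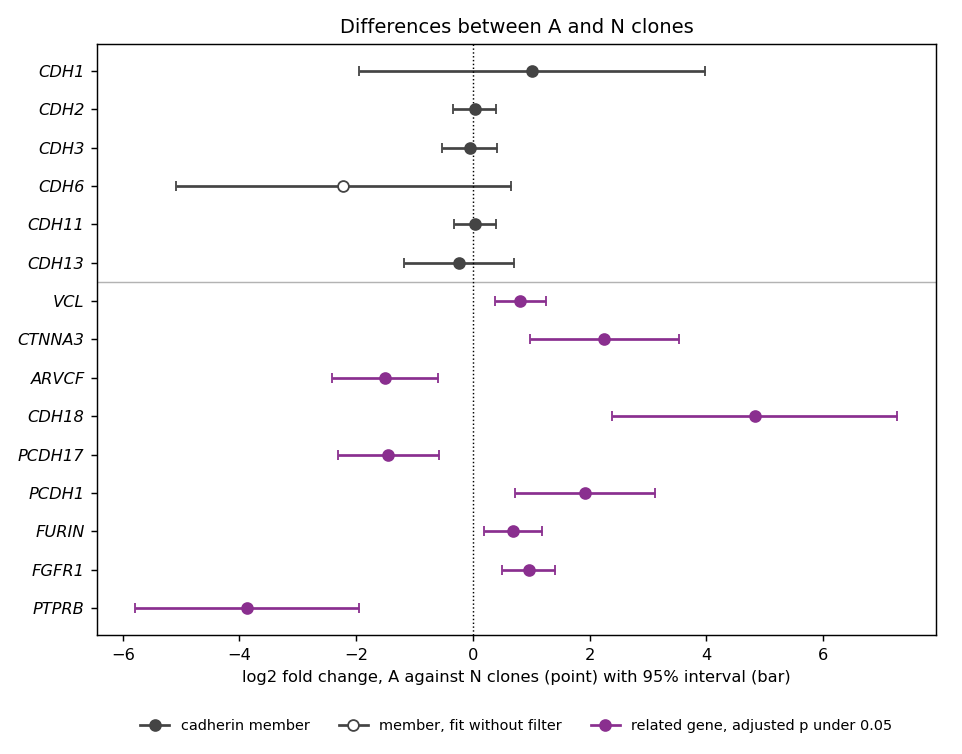
Log2 fold change of A against N clones (point) with its 95% interval (bar) for 6 cadherin genes (grey, with CDH6 open since it comes from the fit without the filter) and for the 9 related genes called at an adjusted p under 0.05 (purple). All 6 cadherin intervals include 0, and those of CDH2 and CDH11 lie within about 0.4 of it on both sides.

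Of the 7 clones with more than 1 CPM of CDH1, 5 also held high levels of mesothelial and simple-epithelial transcripts, and the other 2 did not. Mesothelial markers also stood high without CDH1. N clones 23-10, 23-22 and 23-74 held 0 counts of CDH1 with marker sums of 639, 366 and 294 CPM, beside 441 CPM in A clone 23-62. These sums were made up of different markers. The marker KRT8 was at 2.83, 1.01 and 0.875 CPM in the N clones and at 159 CPM in clone 23-62. The marker WT1 was at 148, 177 and 137 CPM in the N clones and at 31.5 CPM in clone 23-62. The 5 clones with the highest levels of KRT8, a keratin of simple epithelia and mesothelium, were N clones 22-5 and 22-9 and A clones 22-11, 22-16 and 23-62, at 4779, 2727, 585, 446 and 159 CPM. CDH1 was at 7.96, 2.40, 5.38, 3.34 and 6.25 CPM in these clones. In the other 15 clones it stayed at or below 0.885 CPM, except in N clones 17-23 and 20-15, which held 2.61 and 2.58 CPM with 1 KRT8 count each. CDH6 was at 14.7, 5.88, 3.07, 2.39 and 0.858 CPM in the same 5 clones, and its highest level, in clone 23-74, stood beside 0.875 CPM of KRT8 and 82.1 CPM of KRT18. CDH13 was lowest in clones 22-5 and 23-62, at 25.8 and 289 CPM, and was at 412, 451 and 449 CPM in clones 22-9, 22-11 and 22-16. Outside these 5, N clones 20-15 and 23-10 held 336 and 431 CPM of it, with 1 and 48 KRT8 counts.

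Of the 12 mesothelial markers chosen for the check, 11 were in the table and 8 passed the filter, of which 0 were called higher and 1, MSLN, lower in A clones (log2 fold change -1.97, adjusted p = 0.0393). MSLN, the mesothelial surface protein mesothelin, was at 418 and 344 CPM in clones 22-5 and 22-9 and at 1.96 to 75.8 CPM in the others. CALB2, which encodes the mesothelial protein calretinin, held at most 1 count in any clone. The 10 epithelial markers (EPCAM, KRT5, KRT14 and others) summed to at most 24.6 CPM (N clones) and 3.22 CPM (A clones), with none past the filter. Without clones 22-5 and 22-9, an alternative chosen after the values were seen, the log2 fold change of CDH1 was 4.17 (standard error 1.76, adjusted p = 0.12), that of CDH13 -0.45 (standard error 0.296, adjusted p = 0.312) and that of CDH6, without the filter, -1.08 (adjusted p = 0.769). The part of these markers in the cadherin levels was not tested.

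**Figure D3:**
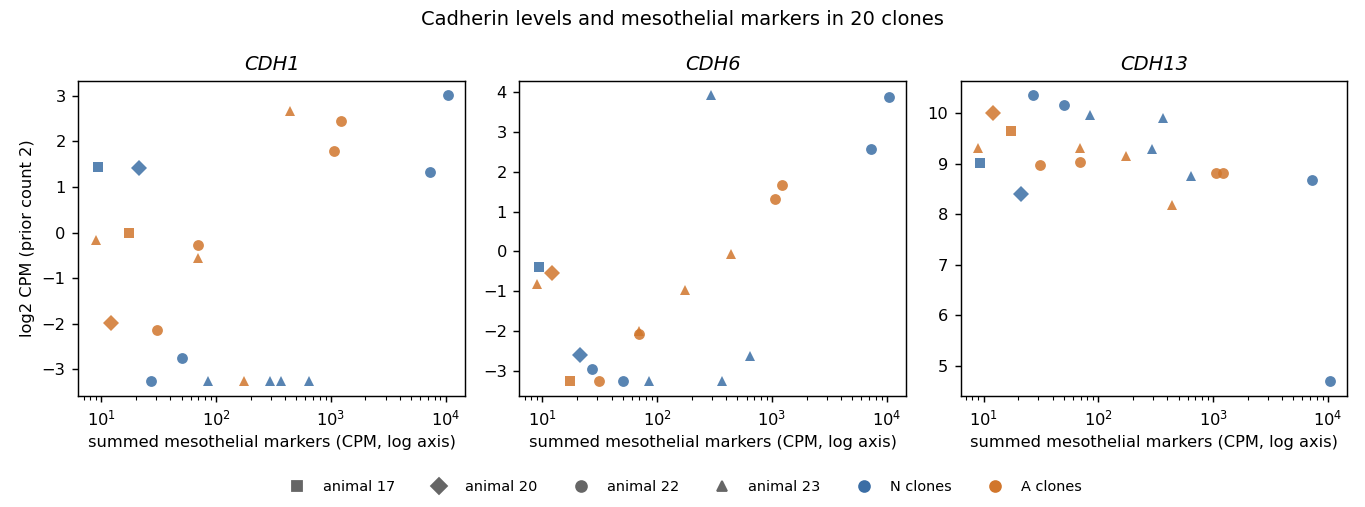
CDH1, CDH6 and CDH13 in each clone (log2 CPM with a prior count of 2) against the summed CPM of 11 mesothelial markers on a log axis, with N clones in blue, A clones in orange and the animal given by the symbol. N clones 22-5 and 22-9 stand at the right, at 10398 and 7294 CPM of the markers. CDH1 is high there and in 3 A clones, but also in N clones 17-23 and 20-15 at the left. It is at 0 counts in N clone 23-10, at 639 CPM of the markers, of which KRT8 held 2.83 CPM. CDH13 is low in clone 22-5 alone.

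Animals 22 and 23, with 8 clones each, were compared next. None of the 5 cadherins tested was called, against 0.14% of all genes. CDH2 came closest, at 157 ± 33.5 CPM in animal 22 and 214 ± 42.8 CPM in animal 23 (SD, n = 8 each). Its log2 difference, animal 23 minus animal 22, was 0.44 (standard error 0.192, unadjusted p = 0.0342, adjusted p = 0.417), and the clones overlapped between 150 and 207 CPM. For CDH11 the difference was -0.10 (standard error 0.189), for CDH3 -0.23 (standard error 0.247), for CDH13 0.09 (standard error 0.486) and for CDH1 -1.89 (standard error 1.46). With 1 animal on each side, this test covers the spread between clones and not that between animals. The interaction of condition and animal was called in 0.031% of the genes tested and in 0 of the cadherins. It was 0.55 (standard error 0.305, adjusted p = 0.624) for CDH11, 0.25 (standard error 0.298) for CDH2, -0.64 (standard error 0.468) for CDH3 and 0.08 (standard error 0.986) for CDH13.

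The 3 genes whose log2 CPM, centred within animals, correlated best with each cadherin over the 20 clones are given as a description, since they were picked from 12895 genes. CDH1 was most like NET1 (Pearson's r = 0.906, Spearman's rho = 0.905), PDE4B (0.905 and 0.886) and EME1 (0.858 and 0.823). PDE4B, a cAMP phosphodiesterase, was at 9.20 CPM in clone 22-5 and also at 10.1 and 6.45 CPM in N clones 17-23 and 20-15, which held CDH1 with 1 count of KRT8 each. CDH2 was most like MAST2 (r = 0.904, rho = 0.907), MDN1 (0.865 and 0.877) and B3GALNT2 (0.830 and 0.768), and CDH11 most like ZNF621 (0.822 and 0.808), SPRTN (0.811 and 0.829) and MED13 (0.810 and 0.732). CDH13 was most like FAR2 (0.915 and 0.759), ITGB5 (0.900 and 0.844) and SGCB (0.900 and 0.770), and without the 2 clones farthest from the median of CDH13 these r were 0.657, 0.685 and 0.749. CDH3 was most like RPL23A (0.812 and 0.716), LOC614643 (0.787 and 0.802) and SNHG12 (0.785 and 0.583). The clones share animals and each pair of genes shares its libraries.

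The wider machinery of cadherin adhesion was read from 8 lists of 81 genes in all, chosen with earlier results of these data known. Of the 81 genes, 43 were tested and 9 were called, 6 higher and 3 lower in A clones. That is 20.9%, close to the 20.6% of all genes. The median log2 fold change was 0.20 beside -0.01 over all genes tested. With DESeq2's Wald test 16 of the 43 were called, where 27.3% of all genes were.

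Of the 12 catenins and junction plaque proteins, 9 were tested, and 2 were higher and 1 lower in A clones. None of the 4 main catenins was called. CTNNB1, which encodes β-catenin, was at 371 ± 47.1 CPM (N) and 397 ± 42.0 CPM (A; SD, n = 10 per group), log2 fold change 0.10 (adjusted p = 0.403). CTNNA1, α-catenin, was at 315 ± 19.3 and 320 ± 54.8 CPM (0.01, adjusted p = 0.954), CTNND1, p120-catenin, at 172 ± 19.6 and 199 ± 27.4 CPM (0.21, adjusted p = 0.131), and JUP, plakoglobin, at 312 ± 123 and 239 ± 114 CPM (-0.46, adjusted p = 0.246). The interval for CTNND1 lay just above 0 (unadjusted p = 0.0461), with 5 A clones above every N clone. JUP was higher in the A clone of animals 17 and 20, by 0.99 and 1.46 on the log2 scale, and lower in the A clones of animals 22 and 23, at -1.05 and -0.60. VCL, which encodes vinculin, an actin linker recruited to junctions under tension and to focal adhesions, rose from 839 ± 382 to 1455 ± 381 CPM (log2 fold change 0.81, standard error 0.206, adjusted p = 0.0128), higher in all 4 animals. CTNNA3, αT-catenin of heart and testis, rose from 0.431 ± 0.631 to 1.64 ± 0.935 CPM (log2 fold change 2.25, standard error 0.605, adjusted p = 0.0166), with 0 to 34 counts in N clones and 4 to 52 in A clones. ARVCF, a relative of p120-catenin, fell from 25.4 ± 19.8 to 8.60 ± 4.59 CPM (log2 fold change -1.51, standard error 0.430, adjusted p = 0.0218). It was lower in A clones of animals 22 and 23 but higher in those of animals 17 and 20, by 0.51 and 1.01 on the log2 scale. Its highest levels, 62.8 and 59.9 CPM, were in N clones 22-5 and 22-9, and without both it no longer passed. The smooth muscle and pericyte markers summed to 1093 to 10059 CPM (N clones) and 4430 to 11732 CPM (A clones), with 3 of the 9 tested higher in A clones, and their part in these levels was not tested.

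**Figure D4:**
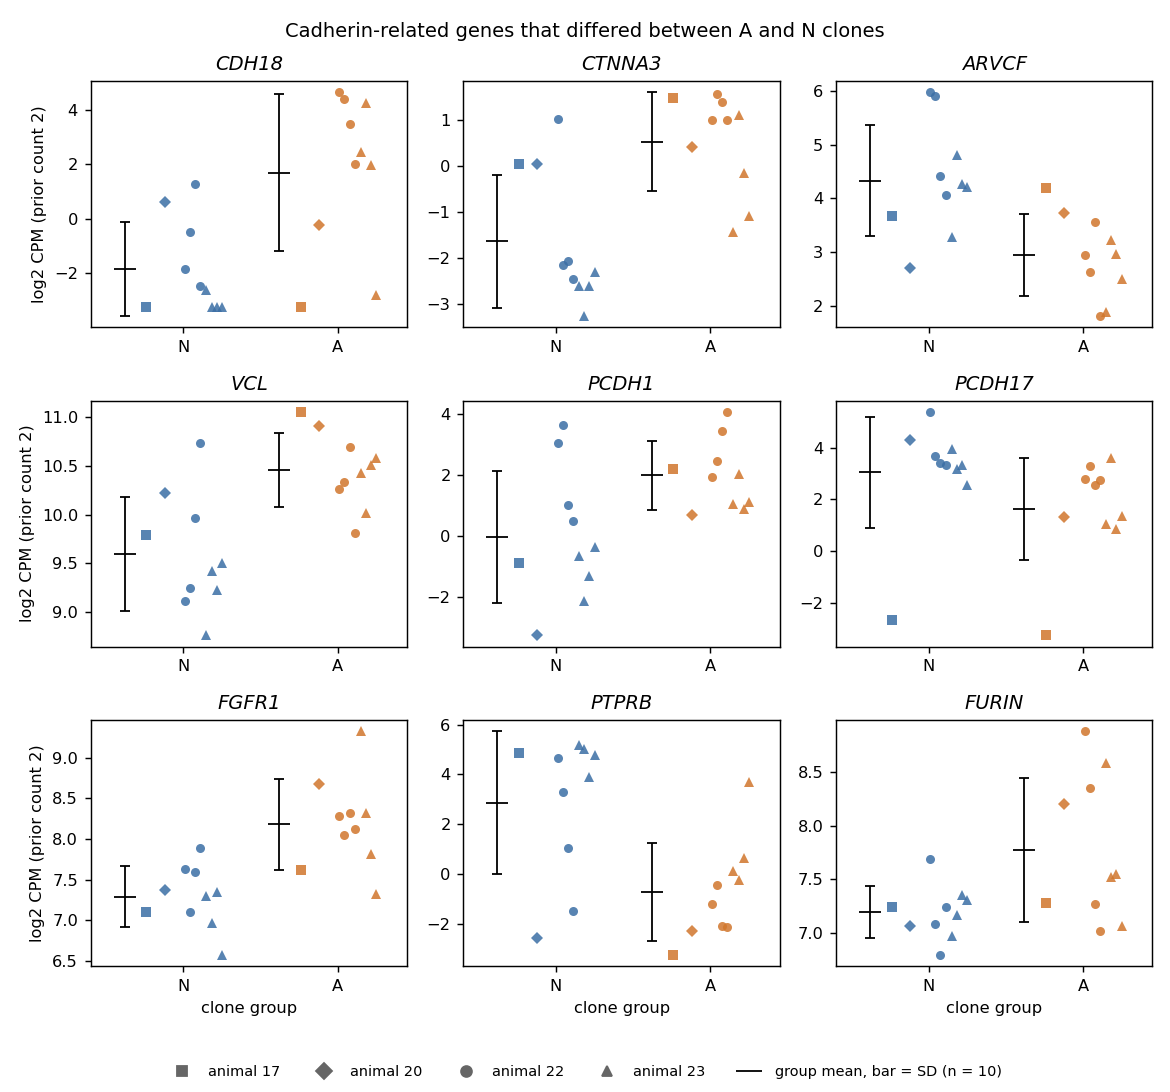
Level of the 9 related genes called between A and N clones, in every clone, as log2 CPM with a prior count of 2, with symbols for the animals, the group mean as a dash and the SD as a bar (n = 10 each). Each panel has its own scale. CDH18 is high in 7 A clones and low in the A clones 17-57, 20-106 and 23-108, and in each of the 9 panels some A and N clones overlap.

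Among the 20 other classical and related cadherins, 5 were tested and 1 was called. CDH18, a type II cadherin known from the nervous system, rose from 0.465 ± 0.793 to 8.98 ± 9.40 CPM (log2 fold change 4.83, standard error 1.15, adjusted p = 0.0102). N clones ranged from 0 through a median of 0.0677 CPM to 2.33 CPM, and A clones from 0 through 4.60 to 25.0 CPM. All 4 A clones of animal 22 and 3 of animal 23 lay above every N clone, whereas A clone 17-57 held 0 counts and A clone 20-106 held less than N clone 20-15, at 0.735 against 1.41 CPM. The other 4 were CDH8, at 115 ± 86.1 (N) and 132 ± 85.1 CPM (A), CDH24 (39.9 ± 22.2 and 26.5 ± 37.8 CPM), CDH26 (29.9 ± 42.0 and 90.3 ± 130 CPM) and CDH17 (2.83 ± 3.55 and 6.68 ± 9.03 CPM). CDH8 ran from 0.123 CPM in N clone 20-15 to 276 CPM in A clone 20-106, the 2 clones of a single animal, and CDH26 from 0.452 CPM in N clone 22-5 to 410 CPM in A clone 20-106. The adjusted p-values were 0.0808 for CDH24, 0.346 for CDH17, 0.459 for CDH26 and 0.905 for CDH8. CDH12 and CDH19 held 0 counts in every clone.

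Of the 12 non-clustered protocadherins, which lack the catenin-binding tail, 6 were tested. PCDH1 rose from 2.60 ± 4.26 to 5.26 ± 4.90 CPM (log2 fold change 1.92, standard error 0.570, adjusted p = 0.0266) and PCDH17 fell from 13.5 ± 11.2 to 4.96 ± 3.9 CPM (log2 fold change -1.45, standard error 0.412, adjusted p = 0.0218). PCDH1 was higher and PCDH17 lower in A clones of all 4 animals, although in animal 17 PCDH17 stood at 1 count against 0. PCDH17 no longer passed without N clone 22-5 or without 22-5 and 22-9 together, nor PCDH1 without either clone of animal 17. None of the 4 tested of the 11 desmosome genes and none of the 4 tested of the 9 FAT, Dachsous and CELSR cadherins was called, with 1 and 2 at an unadjusted p under 0.05. DSG2, the desmoglein of simple epithelia, reached 31.8 CPM (N clones) and 15.0 CPM (A clones).

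The 7 transcription factors known to repress CDH1 were all tested and 0 were called, with 2 (ZEB2 and TWIST2) at an unadjusted p under 0.05, as were 4663 of the 12900 genes tested. TWIST2 had the largest difference of the list, at 17.0 ± 14.0 (N) and 6.56 ± 3.39 CPM (A), a log2 fold change of -1.12 (adjusted p = 0.112). SNAI2 was at 73.7 ± 59.9 (N) and 75.4 ± 27.0 CPM (A), and SNAI1 at 22.0 ± 11.3 and 18.4 ± 6.79 CPM. ZEB1 was at 34.3 ± 11.0 and 52.3 ± 27.6 CPM (adjusted p = 0.144), ZEB2 at 9.99 ± 4.22 and 14.9 ± 3.88 CPM (adjusted p = 0.0677), and TWIST1 at 28.7 ± 9.23 and 24.5 ± 3.40 CPM (adjusted p = 0.342). Of the 6 enzymes that process cadherins 1 was called. FURIN, which removes the propeptide of classical cadherins, rose from 148 ± 26.0 to 242 ± 119 CPM (log2 fold change 0.69, standard error 0.235, adjusted p = 0.0467), but it lost its call in 13 of 20 fits with a clone left out. ADAM10, a protease that cuts classical cadherins, did not pass, with an adjusted p of 0.489.

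Of 4 proteins that meet cadherins at the membrane, 2 passed the filter and both were called, where 20.6% of all genes tested were. The list was chosen with earlier results of these data known, so the count cannot be read as a result about such proteins. FGFR1, the fibroblast growth factor receptor that N-cadherin can bind, rose from 161 ± 40.9 to 312 ± 136 CPM (log2 fold change 0.95, standard error 0.214, adjusted p = 0.00686), higher in all 4 animals, with 7 A clones above every N clone. PTPRB, the phosphatase known as the partner of VE-cadherin, fell from 17.7 ± 14.0 to 1.74 ± 3.97 CPM (log2 fold change -3.87, standard error 0.908, adjusted p = 0.00878), in clones with at most 5 counts of CDH5. It was lower in A clones of animals 17, 22 and 23 and not of animal 20, where the log2 difference was 0.29 at 1 count in the N clone. The endothelial markers summed to 1.47 to 56.0 CPM (N clones) and 13.9 to 108 CPM (A clones), with 2 of the 6 tested higher in A clones, and their part in these levels was not tested. ADIPOQ, which encodes adiponectin, the ligand of T-cadherin, was left out by the filter, with at most 3 counts in any N clone and 0 to 42 counts in A clones.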

How the data were processed

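RNA of 20 clones, 1 library each, was prepared with a directional kit and sequenced in pairs. Per the labels and the submitters' processing notes, the authors used bcl2fastq 2.20, Trimmomatic 0.36, STAR 2.5.2b and featureCounts of Subread 1.5.2 on build ARS-UCD1.2, and deposited raw counts per gene. The strand setting was not given in the sources used here. A single row without a gene name, 0.113 to 0.333% of the counts, was left out. Groups came from the sample titles. Counts were filtered by group with edgeR's default, which kept 12900 of the 23383 genes with a count, scaled by TMM and tested with edgeR 4.0.16 (R 4.3.3), a robust quasi-likelihood fit with animal as a block and Benjamini-Hochberg adjustment at 0.05. Clones of an animal share it by label, and the deviations of its A and N clones correlated at 0.253, 0.193, 0.241 and 0.44 in animals 17, 20, 22 and 23. Animals 22 and 23 were compared in the same fit, and their interaction with condition in a fit of their 16 clones. Alternatives included DESeq2 1.42.0, limma 3.58.1 (voom), other scaling and filters, clones summed per animal, and each clone or animal left out. Log2 CPM used a prior count of 2, bounds a floor of 3 counts per library, and intervals of 95% came from the fit. Scripts were tested on simulated data. Named genes were the 8 cadherins, the pathway genes called, the main catenins and CDH1 repressors, ADIPOQ, and the 3 genes most like each cadherin. Other pathway and marker genes that are named were picked after their values were seen. The members and lists were chosen with earlier results of these data known. RefSeq's ARS-UCD2.0 gene table was used for neighbouring genes only, since its build differs, so no coordinates are given.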

Additional observations from a re-analysis of the deposited data

Results flagged for a closer look

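In 7 of the 55 groups of 10 clones examined (the total counts and the named cadherin and pathway genes), a single clone stood apart, its gap to the next clone exceeding Dixon's 95% critical share of the group's range. Gaps and ranges were taken on the log2 scale (log2 CPM with a prior count of 2, or log2 total count), where low values lie further apart than in the CPM given here. Chance gives about 1 in 20, or 2.75 groups. Among the cadherins, CDH13 was lowest in N clone 22-5, at 25.8 CPM beside 336 to 1308 CPM in the remaining 9 (gap 0.654 of the log2 range), and CDH3 was lowest in A clone 23-14, at 1.51 CPM against 3.82 to 6.50 CPM (0.631). PCDH17 was lowest in both clones of animal 17, at 0.0545 CPM, a single count, in N clone 17-23 against 5.78 to 41.8 CPM (0.648) and at 0 in A clone 17-57 against 1.73 to 12.1 CPM (0.602). CTNNA1 was highest in N clone 22-18, at 362 CPM against 292 to 321 CPM (0.559), and CTNND1 lowest in A clone 22-121, at 142 CPM against 181 to 233 CPM (0.49). The total count was highest in N clone 22-18, at 43111345 against 14908802 to 23425994 (0.574).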

How the results depend on the processing

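No cadherin was called under any alternative run. Only CDH11 in animal 23 alone and CDH1 without N clones 22-5 and 22-9 reached an unadjusted p under 0.05. Without a replicate block, 0 of 5 cadherins and 6 of 43 pathway genes were called, where 16.8% of all genes were. The log2 fold change was then 0.11 for CDH2 and 0.24 for CDH1, and CTNNA3, PCDH1 and PCDH17 lost their calls. With the block CDH1 was at 1.01, and at 1.55 with DESeq2 and 1.64 with limma-voom.

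The signs of the small fold changes were not stable, and the cause was not tested. With counts summed per animal and condition, the log2 fold change was -0.14 for CDH1, -0.23 for CDH11 and 0.22 for CDH13, and limma-voom gave 0.24 for CDH13. In animal 22 alone it was -0.10 for CDH1, -0.27 for CDH2, 0.42 for CDH3, -0.058 for CDH11 and, larger than in all animals, -0.59 for CDH13, and in animal 23 alone -0.0021 for CDH2. Without animal 17 it was 0.014 for CDH3. Without animal 20 it was -0.12 for CDH2 and 0.026 for CDH3, and without animal 22 it was 0.017 for CDH13. Without animal 23 it was -0.82 for CDH1, 0.041 for CDH3 and -0.28 for CDH11. Leaving out each clone gave -0.12 to 0.092 for CDH2, -0.14 to 0.054 for CDH3, -0.038 to 0.15 for CDH11, 0.29 to 2.16 for CDH1 and -0.42 to -0.043 for CDH13. For CDH13, the difference between animals 23 and 22 ran from -0.086 to 0.35 and the interaction from -0.37 to 0.48.

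Of the 43 pathway genes tested 9 were called, where 20.6% of all genes were. The number was 14 of 77 without a filter (11.8% of all genes) and 4 of 27 with at least 10 counts in every clone (21.1%). It was 16 of 43 with DESeq2 (27.3%), 1 of 47 in animal 22 alone (1.15%) and 2 of 41 in animal 23 alone (6.22%). It was 0 with counts summed per animal, where no gene was called (2243 of all genes at an unadjusted p under 0.05), and 0 without animal 23, where 32 genes were called in all (2731 unadjusted). These fits hold fewer clones or units. Leaving out each clone gave 8 to 13, where 15.3% to 24.1% of all genes were called. The 13, of 44 tested, and the 24.1% came without N clone 22-18. FURIN was lost without any of clones 20-15, 22-9, 22-17, 22-18, 23-10, 23-22, 23-23, 23-74, 20-106, 22-11, 22-16, 23-14 and 23-68. At 0 to 5 counts of CDH5 and 0 to 3 of CDH4 per library, little can be said of differences in these genes. Neither was called in the edgeR fit without a filter (adjusted p = 0.625 for CDH5 and 0.2 for CDH4).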

Other observations

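Some relatives of the cadherins lay below the filter, and they are named here after their values were seen. FAT3, a giant cadherin of the FAT family, held at most 1 count in any N clone, and 0 to 60 counts in A clones, with more than 3 counts in 7 of 10, all from animals 22 and 23 (unfiltered edgeR fit, adjusted p = 0.0015). CDH23, the cadherin of inner-ear tip links, held 0 to 4 counts in N clones and 1 to 32 counts in A clones, highest in clones 22-11 and 22-16 (adjusted p = 0.0141). CDH10 held 164 counts in N clone 20-15 and at most 1 in the other N clones, beside 0 to 23 counts in A clones. Its mean was thus higher in N clones, 1.01 against 0.458 CPM. The unfiltered edgeR fit gave the opposite direction, a log2 fold change of 3.74 (adjusted p = 0.0485). A clones held more in animals 22 (0.760 against 0.0141 CPM) and 23 (0.189 against 0 CPM), and less in animal 20. ADIPOQ was also highest in clones 22-11 and 22-16, at 42 and 13 counts (adjusted p = 0.0175). CDHR2 held 0 counts in every N clone and 0 to 4 in A clones (log2 fold change 3.02, adjusted p = 0.0427). CDHR5 went the other way, with 1 to 11 counts in N clones and 1 to 6 in A clones (log2 fold change -1.28, adjusted p = 0.0484). In the unfiltered edgeR fit that gave these values, 11.8% of all genes were called. These are small counts, and which clones carry them differed from animal to animal.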
